A study of Mus musculus with 6 samples.

Results

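The 36 genes described here encode aminoacyl-tRNA synthetases, 20 of them cytosolic enzymes and 16 mitochondrial enzymes. They were taken by exact gene symbol, with no measured value used, from the 38926 symbols of the deposited expression table, and all 36 were found. Mitochondrial members are those whose symbol ends in 2. RNA was sequenced from lineage-negative, Sca1-positive, cKit-positive (LSK) cells, the bone marrow gate that holds haematopoietic stem cells and multipotent progenitors, sorted from femur and tibia of untreated C57BL/6 mice aged 8 to 12 weeks. One group of 3 libraries is labelled wild type (WT). The other group of 3 is labelled a double knockout of the dopamine receptor genes Drd2 and Drd3 (KO), with no further allele or agent named for either group. No label says that the 3 libraries of a group came from separate mice, so every p-value measures the spread between these samples, which may be technical.

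An aminoacyl-tRNA synthetase joins an amino acid to its matching transfer RNA, and so sets the pairing on which translation rests. Cytosol and mitochondria use separate enzymes for most amino acids, all encoded in the nucleus. Gars (glycine) and Kars (lysine) each encode both forms. Mitochondrial glutamine transfer RNA is first charged with glutamate by Ears2 and then converted. Several cytosolic enzymes sit in a multisynthetase complex held by the scaffold proteins Aimp1, Aimp2 and Eef1e1. When amino acids run short, uncharged transfer RNA activates the kinase GCN2 (gene Eif2ak4), the transcription factor ATF4 accumulates, and ATF4 induces amino acid synthesis and transport genes together with a subset of cytosolic synthetases.

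ATF4 binds composite C/EBP-ATF elements. The motif TGATGNAA was searched on both strands (read as TTNCATCA on the other) in RefSeq promoters of build GRCm38.p6, each running from 250 bases before to 50 bases after a start site. A promoter was given for 27 of the 36 members. Of these, 5 held a match, all in the 12 cytosolic synthetases listed as known ATF4 targets, of which 8 had a promoter. Matches were found in 0 of 5 other cytosolic and 0 of 14 mitochondrial members with a promoter. Across all 27025 symbols with a promoter, 1219 (4.51%) held one. The stretches of 4 of the 5 are printed in the direction of transcription so that the matches can be compared, with the match in capitals.
Gars, glycine, chr6:55037960-55037989, + strand, match beginning 30 bases before the start site: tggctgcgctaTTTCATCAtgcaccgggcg
Tars, threonine, chr15:11399655-11399684, - strand, match beginning 15 bases before: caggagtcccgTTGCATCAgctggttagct
Iars, isoleucine, chr13:49682126-49682155, + strand, beginning at base 8 of the transcript: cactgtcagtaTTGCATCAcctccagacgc
Yars, tyrosine, chr4:129189895-129189924, + strand, beginning at base 4 of the transcript: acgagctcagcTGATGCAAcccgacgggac

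Of 26 listed amino acid response genes 24 had a promoter, and 8 of these (33.3%) held the motif. Asns and Trib3, shown because they rose most, are among them. So are Atf3, Vldlr, Pck2 and Nupr1, which were not called (log2 differences of -0.45, -0.76, -0.02 and 0.42), and Chac1 and Slc7a11, which were too low to test. Asns makes asparagine and Trib3 is a pseudokinase that damps ATF4 signalling. A match describes the letters only, and no binding was measured.
Asns, chr6:7693214-7693243, - strand, 23 bases before the start site: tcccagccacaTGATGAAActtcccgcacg
Trib3, chr2:152344028-152344057, - strand, beginning at base 15 of the transcript: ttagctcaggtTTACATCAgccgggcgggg

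Several facts of the libraries bear on what follows. Values are FPKM, reads scaled to gene length and library depth, and the reads recovered from them came to between 5244127 and 7143605 per library, and members had 48 to 7749 reads in a library. These reads are a lower bound for genes whose length did not match the annotation, and no step took account of duplicate reads. Of the targeted genes, Drd2 had 0 FPKM throughout. Drd3 had 1.62, 3.08 and 3.04 FPKM in the libraries labelled KO but 0 in every WT library. FPKM of a whole gene does not show where in Drd3 these reads lie, so the labels could not be checked from these values. Directions are therefore those between the libraries as labelled. Transcripts of the Y chromosome were present in the 3 WT libraries and in KO replicate 2 (Ddx3y at 12.5 to 15.1 FPKM) and Ddx3y was at 0 in KO replicates 1 and 3. The sex-linked transcript Xist was at 1.96 and 2.01 FPKM in KO replicates 1 and 3 and at 0 in the other libraries. By these transcripts KO replicates 1 and 3 read as female and the other libraries as male, so sex is partly confounded with the groups. Among 6 LSK markers the gate genes Kit and Ly6a (Sca1) stood at 82.5 to 150 and 110 to 161 FPKM. A list of 14 plasma and B cell genes summed to 431 to 452 FPKM in the WT libraries and to 3706, 229 and 1677 in KO replicates 1, 2 and 3, and Igkc, the kappa light chain, gave 3182, 4.93 and 1173 FPKM of these. The neutrophil list (6 genes) summed to 112 to 224 FPKM in WT and 24.7 to 149 in KO, and the erythroid list (4 genes) to 205 to 345 and 353 to 657. The T and NK list (5 genes, with Cd3g at 0 throughout) summed to 354 to 419 in WT and 189 to 292 in KO, nearly all of it Nkg7. Mast cell genes (5) summed to 40.5 to 67.4 and 55.0 to 105, with Tpsb2 at 0 in every WT library and 3.46, 6.96 and 13.98 FPKM in KO. Macrophage genes (4) summed to 28.4 to 41.7 and 21.6 to 24.5, and endothelial and stromal genes (5) to 20.2 to 29.9 and 16.1 to 18.7. The part of these cell types in the synthetase values was not tested. In bulk RNA, fewer cells of a type and less RNA per cell cannot be told apart.

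All 36 synthetase genes had reads in every library. Their means over the 6 libraries were 2.34 FPKM or more, so all passed the filter on low values, a mean of 1 FPKM. FPKM is per length of gene, so an order of levels between genes depends on the exon lengths used. The length implied by the reads equalled the GENCODE M21 exon length for 16 of the 36 members. Levels of different genes are set against each other below with this limit. The 20 cytosolic enzymes had a median level of 47.3 FPKM and the 16 mitochondrial enzymes a median of 10.8 FPKM. By mean level, 16 of the cytosolic genes stood above every mitochondrial gene except Lars2. The summed level of the cytosolic class was 1107, 1178 and 1131 FPKM in WT replicates 1, 2 and 3 and 1133, 1215 and 1157 in KO replicates 1, 2 and 3. The ranges of the groups overlapped, with means of 1139 ± 36.1 and 1168 ± 41.7 FPKM (SD, n = 3 per group throughout).

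The mitochondrial class was dominated by Lars2, the leucine enzyme, at 316, 260 and 309 FPKM in the WT libraries and 277, 225 and 274 in the KO libraries. It made up 53.2 to 63.2% of the summed mitochondrial level in a library. No other gene of the GENCODE M21 annotation shares its exons by position. Reads from similar sequence elsewhere in the genome were not checked. The mitochondrial sum was 482 ± 28.2 FPKM in WT and 450 ± 23.2 in KO, and without Lars2 it was 188 ± 3.23 and 191 ± 6.11 FPKM. Next in level came Tars2 (threonine), Rars2 (arginine) and Fars2 (phenylalanine), whose means of 25.4, 25.0 and 24.3 FPKM differed by less than their spread over the 6 libraries (SD 2.43, 2.41 and 1.31). At the low end stood Ears2 at 4.07, Pars2 (proline) at 3.88 and Wars2 (tryptophan) at 2.34 FPKM.

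**Figure D1:**
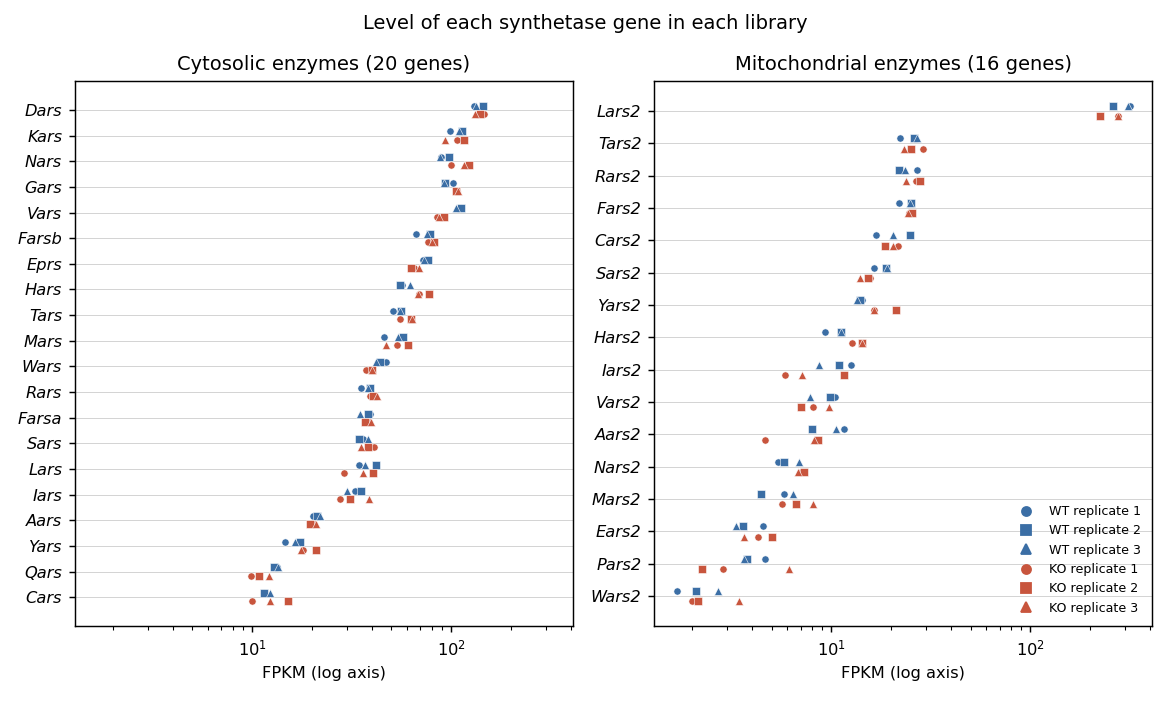
FPKM (horizontal log axis) of the 20 cytosolic and 16 mitochondrial synthetase genes, ordered by mean level; each marker is 1 library, blue for WT and red for KO, with the shape giving the replicate. Most neighbours in the order overlap, and Lars2 stands apart from the other mitochondrial enzymes.

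Dars, the aspartate enzyme, was the highest cytosolic member at 130, 144 and 133 FPKM in WT and 146, 140 and 132 in KO, and its groups overlapped. Below it came Kars (106 ± 8.62 FPKM, SD over 6 libraries) and Nars (asparagine, 102 ± 14.1). Gars (101 ± 7.15) and Vars (valine, 98.7 ± 12.3) followed. Over the 6 libraries the ranges of these genes overlapped, but the place of Vars differed between the groups. In WT, Vars (105.7 to 111.5 FPKM) lay above every library of Nars (87.7 to 97.8) and Gars (92.1 to 101.9), and overlapped Kars. In KO, Vars (85.0 to 91.8) lay below every library of Nars (100.2 to 122.4), Gars (105.9 to 108.4) and Kars (93.3 to 115.3). The 2 subunits of the cytosolic phenylalanine enzyme differed in FPKM: Farsb, the beta subunit, was at 76.3 ± 5.39 and Farsa, the alpha subunit, at 37.7 ± 1.70. Their recovered reads over the 6 libraries were close, at 6974 and 6482, and their GENCODE M21 exon lengths are 2620 and 4538 bases. The gap in FPKM therefore depends on the lengths used and does not show unequal transcript levels. Eprs, which charges both glutamate and proline, stood at 69.7 FPKM, Hars (histidine) at 64.8, Tars at 57.2 and Mars (methionine) at 53.0. Wars (tryptophan), Rars (arginine), Sars (serine), Lars (leucine) and Iars lay between 32.5 and 41.6 FPKM. Aars and Yars followed at 20.7 and 17.5 FPKM, and Qars (glutamine) and Cars (cysteine) were lowest, both at 12.1 FPKM. Every library of Dars lay above every library of Kars, and so did Vars over Farsb, Iars over Aars and Yars over Qars. Other neighbours in the cytosolic order overlapped, as did all neighbours in the mitochondrial order below Lars2.

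Within an amino acid the cytosolic gene was mostly the higher one. The ratio of cytosolic to mitochondrial FPKM was 21.5 ± 6.24 for Wars over Wars2 and 15.4 ± 2.30 for Nars over Nars2 in the WT libraries. It was nearest to even for Yars over Yars2 (1.17 ± 0.115 in WT). The mitochondrial gene was the higher one for Cars over Cars2 (0.585 ± 0.113) and for Lars over Lars2 (0.130 ± 0.0275). Recovered reads, a lower bound for some genes, were 2126 for Cars and 1422 for Cars2 over the 6 libraries. The order of Cars and Cars2 may thus depend on the lengths used. Of 17 such ratios, 2 had groups that did not overlap, Sars over Sars2 and Farsb over Fars2. The serine ratio was 2.20, 1.82 and 1.99 in WT and 2.63, 2.51 and 2.52 in KO. For the other it was 3.04, 3.10 and 3.06 in WT and 3.13, 3.22 and 3.29 in KO. No background share was computed for such ratios.

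Setting the KO libraries against WT asks which synthetase genes differ in LSK cells labelled as lacking both receptors. Of the 36 members, 1 was called by limma (Benjamini-Hochberg adjusted p under 0.05 over all genes tested), Vars, which fell. Across the 11371 genes tested 10.9% were called, 5.48% higher and 5.43% lower in the KO libraries. The cytosolic class had 1 of 20 called, and the mitochondrial class 0 of 16. An unadjusted p under 0.05 was found for 3 of 20 cytosolic (Hars, Nars and Vars) and 3 of 16 mitochondrial genes (Hars2, Yars2 and Sars2), against 27.5% of genes tested. The median log2 difference was 0.04 in both classes, against -0.002 over all genes tested, on the log2(FPKM + 1) scale. Differences among members ran from -0.46 to 0.35, and the ratio of the group means in FPKM from 0.712 to 1.30.

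How large a change the data leave room for can be read from the 95% intervals. For all 36 members the interval of the log2 difference lay within -1 to 1, which was so for 83.9% of genes tested. The interval reached lowest for Aars2, at -0.97, and highest for Wars2 and Mars2, both at 0.66. These are bounds on the log2(FPKM + 1) scale, where the added 1 shrinks the fold change of a low gene. They do not bound the fold change itself. With 0.1 added in place of 1, the difference of Aars2 went from -0.46 to -0.52. Among the cytosolic genes no interval went beyond -0.54 or 0.53. The median standard error was 0.10 in the cytosolic and 0.15 in the mitochondrial class, against 0.16 over all genes tested. A difference that did not pass the test is not thereby shown to be absent.

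**Figure D2:**
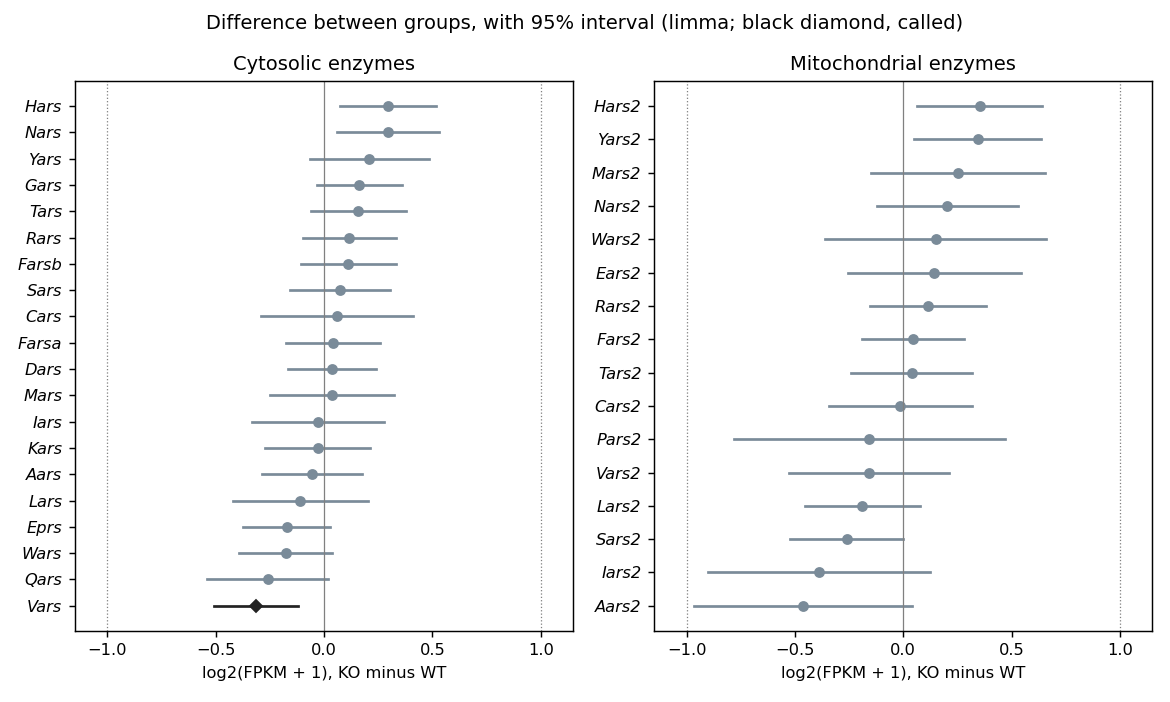
Difference of KO minus WT on the log2(FPKM + 1) scale (horizontal axis) for each cytosolic and mitochondrial synthetase gene, with its 95% interval from limma as a line; the black diamond marks a gene that was called and dotted lines stand at -1 and 1. All 36 intervals lie between the dotted lines, and Vars alone was called.

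Vars charges valine transfer RNA (chromosome 17, 35000987 to 35016322, build GRCm38, + strand). It was at 111.5, 111.4 and 105.7 FPKM in the WT libraries and at 85.0, 91.8 and 86.7 FPKM in the KO libraries. Every KO library lay below every WT library. The fall was 0.32 ± 0.09 on the log2 scale (SE; from 109.5 ± 3.33 to 87.8 ± 3.55 FPKM, limma adjusted p = 0.0460). Among the members only Lars2 had more recovered reads than the 20902 of Vars over the 6 libraries. The call was lost in 10 of 14 alternatives with the direction kept in each (adjusted p = 0.0328 to 0.263). Among these were leaving out WT replicates 1, 2 or 3 or KO replicates 1 or 2 (adjusted p = 0.145, 0.171, 0.114, 0.106 and 0.0584) and leaving out both KO libraries that lack Y-linked transcripts (0.152). Vars2, the mitochondrial valine enzyme, was at 9.36 ± 1.41 and 8.29 ± 1.39 FPKM, with overlapping groups.

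The groups did not overlap in 12 of 36 members (33.3%), against 32.8% of the genes tested, so this share was at the background. KO lay above WT in 7 of them (16.2% of genes tested) and below in 5 (16.6%). Those above were Gars, Hars, Nars, Rars, Yars, Hars2 and Yars2. Those below were Eprs, Qars, Vars, Wars and Sars2. By class these were 9 of 20 cytosolic and 3 of 16 mitochondrial genes.

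Among members that were not called, Hars and Nars had the widest positive differences of the cytosolic class. Hars was at 56.7, 55.3 and 62.2 FPKM in WT and 69.1, 77.6 and 68.1 in KO (log2 difference 0.30 ± 0.10 SE, limma adjusted p = 0.0868). For Nars the values were 88.8, 97.8 and 87.7 in WT and 100.2, 122 and 116 in KO (0.30 ± 0.10, limma adjusted p = 0.101). In both genes KO replicate 2, the KO library with Y-linked transcripts and little Igkc, was the highest. Qars was at 13.3, 12.9 and 13.6 FPKM in WT and 9.84, 10.9 and 12.2 in KO (-0.26 ± 0.12, limma adjusted p = 0.210). The SD was 0.313 FPKM among its WT libraries and 1.16 among those of KO.

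Hars2, the mitochondrial partner of Hars, was at 9.28, 11.2 and 11.1 FPKM in WT and 12.7, 14.2 and 14.3 in KO (0.35 ± 0.13, limma adjusted p = 0.109). Hars and Hars2 lie head to head on chromosome 18, on opposite strands, with start sites 197 bases apart and 195 exonic bases in common. The library kit named in the labels does not mark strand, so reads from the shared bases cannot be assigned to either gene. They make up 7.97% of the exon length of Hars and 4.56% of that of Hars2.

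Aars2 and Iars2, the mitochondrial alanine and isoleucine enzymes, had the widest differences of all members and also wide spread. Aars2 was at 11.6, 8.00 and 10.5 FPKM in WT and 4.64, 8.60 and 8.20 in KO (-0.46 ± 0.22, limma adjusted p = 0.216). The groups overlapped, and KO replicate 1 was lowest. Iars2 was at 12.5, 10.9 and 8.68 FPKM in WT and 5.82, 11.5 and 7.14 in KO (-0.39 ± 0.23, limma adjusted p = 0.305). Here KO replicate 2 sat inside the WT range while KO replicates 1 and 3, the ones without Y-linked transcripts, lay below every WT library. Without those 2 libraries the difference turned to 0.11 (adjusted p = 0.779; 0.0789 to 0.820 over the alternatives). Exons of Rab3gap2 on the other strand cover 2034 bases of Iars2, and 24.2% of its exon length is shared with other genes.

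None of the 3 highest mitochondrial members was called. Lars2 differed by -0.19 ± 0.12 (limma adjusted p = 0.336), with overlapping groups. Tars2 was at 22.2, 25.9 and 26.8 FPKM in WT and 28.9, 25.1 and 23.2 in KO, and Rars2 at 26.9, 21.9 and 23.3 in WT and 26.5, 28.0 and 23.7 in KO. Their log2 differences were 0.04 ± 0.12 and 0.11 ± 0.12. Of the highest cytosolic members, Dars differed by 0.04 ± 0.09, and Kars, at 98.4, 114 and 109 FPKM in WT and 107, 115 and 93.3 in KO, by -0.03 ± 0.11.

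**Figure D3:**
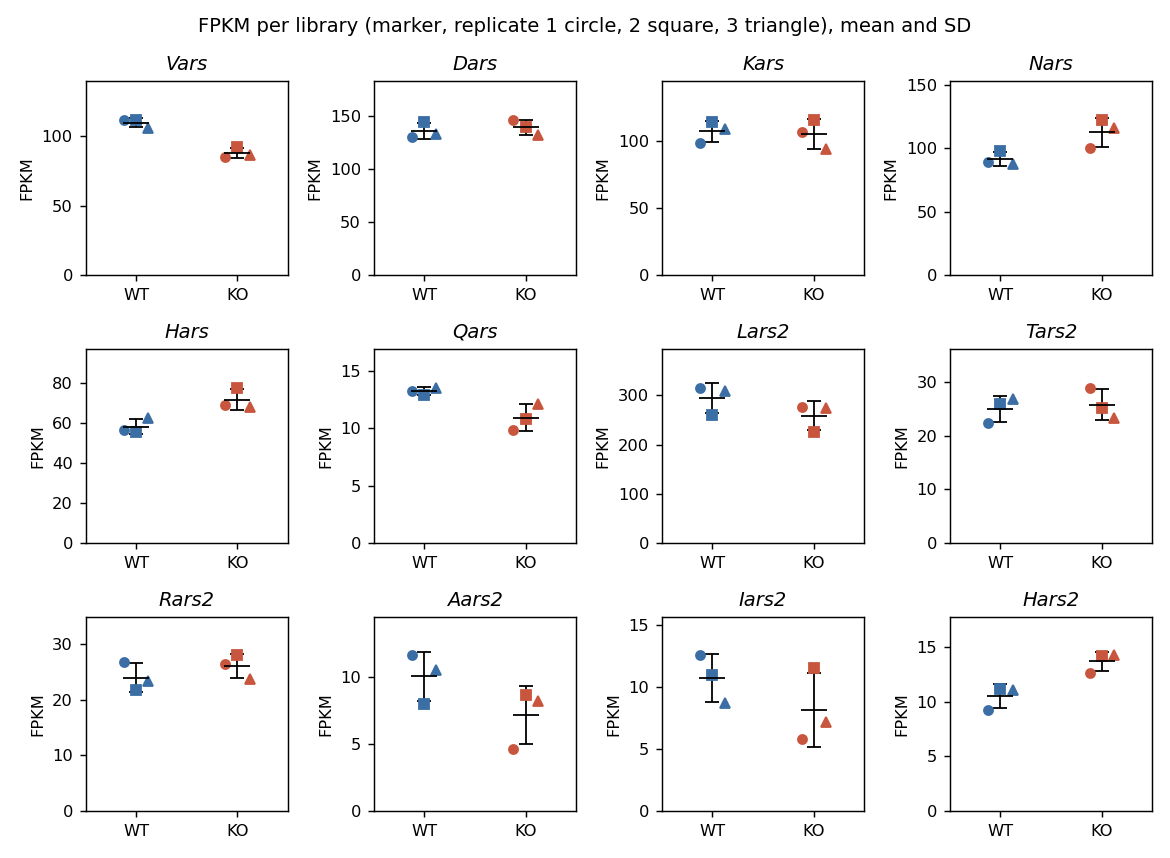
FPKM (vertical axis, from 0) of 12 synthetase genes in the 3 WT and 3 KO libraries; markers are libraries (replicate 1 circle, 2 square, 3 triangle), the horizontal bar is the group mean and the whiskers its SD. Groups are apart in Vars, Hars, Nars, Qars and Hars2 and overlap in the other 7.

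The other members had no difference that passed the test. Yars2 (tyrosine) was at 13.9 ± 0.398 FPKM in WT and 18.0 ± 2.74 in KO, and Sars2 (serine) at 18.1 ± 1.47 and 14.9 ± 0.842. Eprs stood at 73.9 ± 2.31 and 65.5 ± 3.15 FPKM and Wars, an enzyme that interferon gamma induces, at 44.2 ± 2.44 and 39.0 ± 1.52. Gars was at 95.6 ± 5.43 and 107 ± 1.31 FPKM. For Yars and Rars the means were 16.1 and 18.8, and 37.5 and 40.7 FPKM. For Aars, Cars, Farsa, Farsb, Iars, Lars, Mars, Sars, Tars, Cars2, Ears2, Fars2, Mars2, Nars2, Pars2, Vars2 and Wars2 the groups overlapped, with log2 differences between -0.16 and 0.25.

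Members of the multisynthetase complex and free enzymes were also set side by side. Of the 8 synthetases of the complex (Dars, Eprs, Iars, Kars, Lars, Mars, Qars and Rars), 0 were called by limma and 0 had an unadjusted p under 0.05, with a median log2 difference of -0.03. Of the 12 free cytosolic members 1 was called and 3 had an unadjusted p under 0.05, with a median of 0.09. Across all genes tested 10.9% were called and 27.5% had an unadjusted p under 0.05. Counts this small do not set the complex apart from the free enzymes. The scaffold genes Aimp1, Aimp2 and Eef1e1 differed by 0.13, 0.20 and 0.20, and their groups overlapped. These medians are descriptions, and their difference was not tested.

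The 12 synthetases known as ATF4 targets (Aars, Cars, Eprs, Gars, Iars, Lars, Mars, Nars, Sars, Tars, Wars and Yars) could be read against other genes of the amino acid response. Of the 12, 0 were called by limma and 1 had an unadjusted p under 0.05 (Nars), against 27.5% of genes tested. The median log2 difference of the 12 was 0.05 with a range of -0.18 to 0.30. Of 26 listed response genes 22 were tested and 5 were called by limma (22.7%, against 10.9% of genes tested), 3 higher and 2 lower in KO. Of the 22 differences 8 were positive and 14 negative, with a median of -0.10. The list was drawn up with earlier results of these data known, so its count is not independent evidence of a direction.

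Trib3 rose from 5.80, 6.10 and 4.82 FPKM in WT to 17.9, 16.4 and 19.9 in KO (1.54 ± 0.14 on the log2 scale, SE; limma adjusted p = 0.000396). Asns rose from 14.9, 16.8 and 14.7 FPKM to 43.7, 52.1 and 35.4 (1.43 ± 0.14, limma adjusted p = 0.000751). In both genes every KO library lay above every WT library, and both calls held in all 14 alternatives. Their 95% intervals, 1.22 to 1.85 and 1.10 to 1.75, lie wholly above the highest bound of any ATF4-target synthetase, 0.53 for Nars.

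Cebpb, a C/EBP factor that also acts in myeloid priming, rose from 837, 903 and 694 FPKM in WT to 1297, 1175 and 1021 in KO (0.52 ± 0.13, limma adjusted p = 0.0357). Slc7a5, a transporter of large neutral amino acids, fell from 33.8, 37.5 and 33.9 FPKM to 25.8, 25.6 and 22.1 (-0.50 ± 0.11, limma adjusted p = 0.020). Slc38a2, a transporter of small neutral amino acids, fell from 98.5, 95.9 and 85.5 FPKM to 59.0, 64.3 and 73.5 (-0.51 ± 0.11, limma adjusted p = 0.0210). In these 3 genes the groups did not overlap. Cebpb missed the threshold without any 1 WT library and without KO replicate 1 or 2 (adjusted p = 0.0761 to 0.140). Slc7a5 missed it without any 1 WT library (0.0607, 0.102 and 0.0657), and Slc38a2 without WT replicates 1 or 2 or KO replicates 1 or 2 (0.0855, 0.0977, 0.0598 and 0.0524). Over all alternatives the adjusted p ran from 0.00585 to 0.169 for Cebpb, 0.0134 to 0.153 for Slc7a5 and 0.0110 to 0.115 for Slc38a2. Atf4 itself was at 55.5 ± 1.70 and 63.0 ± 13.9 FPKM and Eif2ak4 at 4.61 ± 0.611 and 3.28 ± 0.722, and neither was called.

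**Figure D4:**
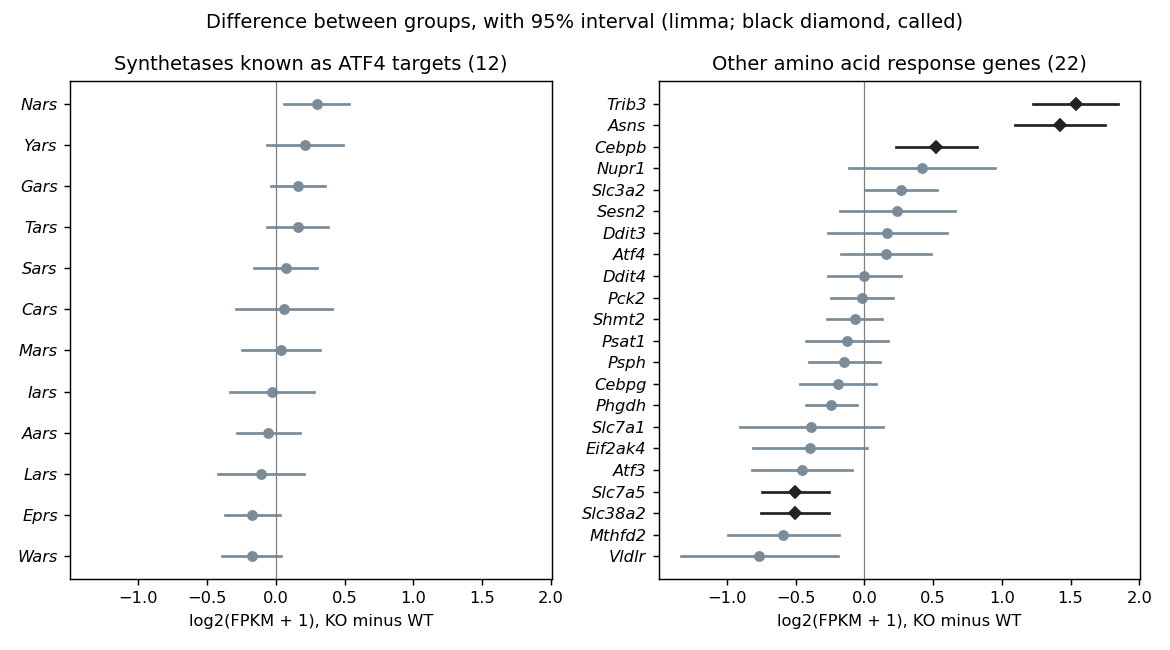
Difference of KO minus WT on the log2(FPKM + 1) scale (horizontal axis) with its 95% interval from limma, for the 12 synthetases known as ATF4 targets (left) and the other 22 amino acid response genes tested (right); black diamonds mark called genes. The synthetases lie between -0.18 and 0.30, while Trib3 and Asns stand at 1.54 and 1.43.

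Partners of the synthetases gave no call either. By limma 0 of 7 genes of charging and proofreading were called, and 3 had an unadjusted p under 0.05 (27.5% of genes tested) and groups that did not overlap (32.8%): the D-aminoacyl-tRNA deacylase genes Dtd1 and Dtd2 and the proofreading relative Prorsd1, with log2 differences of 0.31, 0.49 and 0.37. Of 4 tested genes of mitochondrial charging (Qrsl1, Pet112, Gatc and Mtfmt), 0 were called and 0 had an unadjusted p under 0.05. The same held for the 5 cytosolic elongation factor genes, where Eef1a1 was at 915 and 874 FPKM and Eef2 at 331 and 333 FPKM in WT and KO. Of 9 mitochondrial translation factors 0 were called by limma and 2 had an unadjusted p under 0.05, a share of 22.2%, the initiation factor genes Mtif2 and Mtif3. Mtif2 differed by 0.52 ± 0.15 (limma adjusted p = 0.0602).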

How the data were processed

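Libraries were made with SMART-Seq v4 and Nextera XT, per the labels' protocols. The authors deposited FPKM values, 1 column per library; what they did between reads and FPKM, and the annotation, are not given in the sources used here. Build mm10 and the tools DESeq2 1.18.1, HTSeq 0.6.1, TopHat2 2.1.1 and bcl2fastq 2.19.1.403 are listed in the submitters' processing notes, without their roles.

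KO and WT (3 libraries each) were compared with limma 3.58.1 (R 4.3.3; lmFit, then eBayes with trend) on log2(FPKM + 1). The 11371 genes averaging 1 FPKM or more were tested, two-sided, with p-values adjusted by Benjamini-Hochberg over these genes. For low genes the added 1 shrinks a fold change. Whole reads, used for depth and for voom, were recovered from ratios between libraries: all 17183 genes above 0 in 2 or more libraries gave whole numbers (relative tolerance 1e-09), and the implied length equalled the GENCODE M21 exon length for 16 of the 36 members. Elsewhere the reads are a lower bound. The test was checked on simulated reads, where the smallest changes simulated, which exceeded those of every member, were mostly not called. The simulation changed only a small share of the genes and used an assumed spread between libraries. It therefore does not give the power of the test for the members in these data. Python 3.11.15, pandas 2.3.3, numpy 2.4.6 and matplotlib 3.10.9 were used.

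The members, gene lists and alternatives were chosen with earlier results of these data known. Every member was named; values per library were given for called members and, in each class, for the 3 highest and the 3 of largest difference among those not called; other genes were named when called. Further names (non-overlapping members, partners, neighbours, factors) were chosen after their values were seen. The 14 alternatives were a pseudocount of 0.1, a mean of at least 5 FPKM, no filter, centring on library medians, the replicate number as a block, leaving out each library, a term for Y-linked transcripts, leaving out the KO libraries without them, and voom on recovered reads. The promoter stretch of 1 member is not reported here.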

Additional observations from a re-analysis of the deposited data

How the results depend on the processing

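Of the 36 synthetases, Vars was the only one called by limma in any of the 14 alternatives, and no mitochondrial member was called in any. The cytosolic count went from 1 to 0 with no filter, with centring on library medians, with the replicate block, with the term for Y-linked transcripts, without the KO libraries lacking them, and to 0 or 1 when single libraries were left out. The count over all genes went from 1240 to 588 with no filter, 805 with the replicate block, 373 with the Y-linked term and 514 without the KO libraries lacking these transcripts, and ran from 370 (without WT replicate 2) to 1598 (without KO replicate 3) when 1 library was left out. Amino acid response genes called lower went from 2 to 1 with no filter, 1 with the replicate block, 0 with the Y-linked term, and 0 to 4 with 1 library left out. The cytosolic median was 0.107 under both alternatives on Y-linked transcripts, where KO replicate 2 alone sets the difference. The mitochondrial median was 0.0708 with voom and ran from -0.0299 to 0.0742 with 1 library left out. Signs turned for Iars2 (0.111) and Kars (0.110) under both Y-linked alternatives, for Kars also with 1 library left out (-0.0979 to 0.0531), and for Tars2 likewise (-0.0458 to 0.107). The cause of these shifts was not tested. Deviations from the group means correlated at -0.0311, 0.0450 and -0.116 between same-numbered libraries. Between libraries of unlike number the correlations ran from -0.155 to 0.171. The deviations of a gene sum to 0 within a group of 3, so these values cannot show whether the numbers mark pairs. Depth is lowest for members with as few as 48 recovered reads in a library, and 33 of the 36 had over 100 in every library.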

Other observations

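Of the 36 members, 13 have the start of another gene on the opposite strand within 1000 bases in GENCODE M21, Hars and Hars2 counting each other. These neighbours were looked at after the data were seen. Kars and Terf2ip, which encodes a telomere-binding protein, start 75 bases apart. Terf2ip rose from 7.25, 7.49 and 7.61 FPKM in the libraries labelled WT to 12.1, 14.1 and 12.4 in those labelled KO (log2 difference 0.71, limma adjusted p = 0.00956), while Kars differed by -0.03 and was not called. Rars2 and Orc3, an origin recognition subunit, start 13 bases apart and differed by 0.11 and 0.16. Sars2 and Mrps12, a mitochondrial ribosomal protein gene, start 172 bases apart and differed by -0.26 and 0.05. Neither of the last pairs held a called gene. Wider differences were those of Lyrm4 beside Fars2 (0.49, limma adjusted p = 0.0860) and Ubfd1 beside Ears2 (-0.42, limma adjusted p = 0.165). Of the neighbours outside the synthetases that were tested, Terf2ip alone was called, where 10.9% of all genes tested were called.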
